A study of Mus musculus with 6 samples.

Results

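Interferon-stimulated genes, which cells switch on when an interferon reaches its receptor, were followed in mouse liver after a long dietary exposure to a plastic. The set comprised 40 genes chosen by symbol from the 56674 rows of the count table, and all 40 had a row and enough reads to be tested. Of these, 32 are mainly known as targets of type I interferon and 8 are GTPases strongly induced by interferon-gamma. The GTPases were Igtp, Irgm1, Irgm2, Gbp2, Gbp3, Gbp6 and Gbp7, with Ifi47 placed beside them here because it encodes a GTPase of the same IRG family. The libraries came from livers of male C57BL/6 mice, a common inbred strain without an engineered allele in the labels, kept for 71 weeks. PB-MP libraries (3) are of mice fed chow with polypropylene black microplastic, and control libraries (3) of mice fed normal chow. Neither the dose nor the size of the particles is given in the labels. Whether each library stands for its own animal is not stated in the labels, and the p-values therefore reflect only how much these samples differed, part of which may be technical. Poly(A) RNA was sequenced to 70603124 to 90483598 counted reads per PB-MP library and 68357478 to 112566641 per control library.

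As background, type I interferons (interferon-alpha and interferon-beta) bind IFNAR1 and IFNAR2, and the kinases JAK1 and TYK2 then phosphorylate STAT2. STAT2 and IRF9 are parts of the complex ISGF3, which binds the interferon-stimulated response element (ISRE) in the promoters of antiviral genes. Interferon-gamma, made chiefly by T and NK cells, binds IFNGR1 and IFNGR2, and its signal reaches promoters that hold a gamma-activated site (GAS), with newly made IRF1 carrying the signal on to other promoters. In liver, hepatocytes, Kupffer cells (the resident macrophages) and endothelial cells all respond to interferon, and a low tonic output keeps many of these genes on without infection.

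Promoter sequence shows which of the elements each gene carries near its start. RefSeq (build GRCm38.p6) gave promoters of 300 bases, 250 before and 50 after the transcription start, for 29 of the 40 genes. The ISRE was searched as GAAANNGAAA on both strands (TTTCNNTTTC on the other), and the GAS as TTCNNNGAA, which reads the same on both strands. An ISRE match was present for 16 of the 29 genes (55.17%), against 3.99% of 27025 genes in the RefSeq table. Among the genes with a promoter it was present for 10 of 22 type I targets (45.45%) and 6 of 7 GTPases (85.71%). A GAS match was present for 8 of the 29 genes (27.59%), against 9.55% of all genes, and 5 genes held both. By group, the GAS match was present for 5 of 22 type I targets (22.73%) and 3 of 7 GTPases (42.86%). A match describes the letters of this window and is not a measured binding site.

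Stretches of 80 bases upstream of the start are shown for 8 genes, all from promoters with an ISRE match. They were chosen to set type I targets beside GTPases and to show close copies. Each is read 5′ to 3′ on the gene's strand, with coordinates of GRCm38.p6 and the matches in capitals:
Bst2, chr8:71537558-71537637, minus strand: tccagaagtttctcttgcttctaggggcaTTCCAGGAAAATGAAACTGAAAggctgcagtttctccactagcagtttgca
Isg15, chr4:156200846-156200925, minus strand: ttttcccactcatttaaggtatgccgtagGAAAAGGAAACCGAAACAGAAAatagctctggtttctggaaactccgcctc
Ifit3, chr19:34583355-34583434, plus strand: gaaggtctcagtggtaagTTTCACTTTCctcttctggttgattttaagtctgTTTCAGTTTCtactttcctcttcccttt
Ifit3b, chr19:34607751-34607830, plus strand: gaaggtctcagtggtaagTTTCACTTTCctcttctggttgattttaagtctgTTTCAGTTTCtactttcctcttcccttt
Igtp, chr11:58199476-58199555, plus strand: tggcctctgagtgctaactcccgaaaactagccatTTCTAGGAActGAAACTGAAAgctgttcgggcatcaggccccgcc
Irgm2, chr11:58214872-58214951, plus strand: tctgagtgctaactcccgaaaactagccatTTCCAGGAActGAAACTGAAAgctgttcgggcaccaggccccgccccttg
Gbp2, chr3:142620569-142620648, plus strand: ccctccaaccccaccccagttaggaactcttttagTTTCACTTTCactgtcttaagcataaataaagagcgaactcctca
Gbp3, chr3:142559964-142560043, plus strand: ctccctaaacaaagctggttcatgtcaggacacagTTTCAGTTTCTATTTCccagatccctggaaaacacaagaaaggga

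In Bst2, which encodes the virus-holding membrane protein tetherin, a GAS match runs into 2 overlapping ISRE matches. Isg15, which encodes a ubiquitin-like modifier, holds 3 overlapping ISRE matches. The stretches of Ifit3 and its copy Ifit3b were identical over all 80 bases. Their promoters were identical at 201 of 268 bases, compared without gaps at the best offset. The GTPase neighbours Igtp and Irgm2 share an arrangement in which the GAS comes just before the ISRE. Compared in the same way, their promoters were identical at 184 of 270 bases (68.1%). An inserted or missing base would lower such counts, so they can understate the likeness. Gbp2 and Gbp3 hold ISRE matches without a GAS match in the window, and another promoter of Gbp3 held neither match.

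No interferon-stimulated gene passed the edgeR test between diets. There (quasi-likelihood test, Benjamini-Hochberg adjusted p below 0.05) 0 of the 40 were higher in PB-MP and 0 were lower, beside 0% of 17871 genes tested in either direction, and the smallest adjusted p of a member was 0.247, for Ifi27. At an unadjusted p below 0.05, 1 member was higher in PB-MP (Mx2), against 7.35% of all genes tested, and 3 were lower (Bst2, Rtp4 and Ifi27), against 4.74%. The same 4 genes were the ones whose groups did not overlap, 4 of 40, against 19.8% of all genes tested (11.4% higher and 8.49% lower). DESeq2 called Rtp4 lower in PB-MP (adjusted p = 0.0140) and no other member, against 0.719% of 21004 genes called lower, 1.72% called higher and 2.44% called in either direction, and limma-voom called 0. The count at an unadjusted p below 0.05 depended on PB-MP replicate 1, without which 0 members were higher and 6 were lower.

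The type I targets had a median log2 fold change (PB-MP over control) of -0.08, with 14 of 32 estimates above 0 and 18 below. The GTPases had a median of -0.20, with 1 of 8 above 0 and 7 below. The median of all genes tested was 0.01. Scaling by library size only moved that median to 0.23, and there 20 of 32 type I targets and 6 of 8 GTPases were above 0, at medians of 0.15 and 0.03. Without PB-MP replicate 1 the medians were -0.34 for the type I targets and -0.36 for the GTPases, with 8 of 32 and 0 of 8 above 0. Without PB-MP replicate 3 they were 0.02 and -0.12, so the median of the type I targets had no fixed sign.

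**Figure D1:**
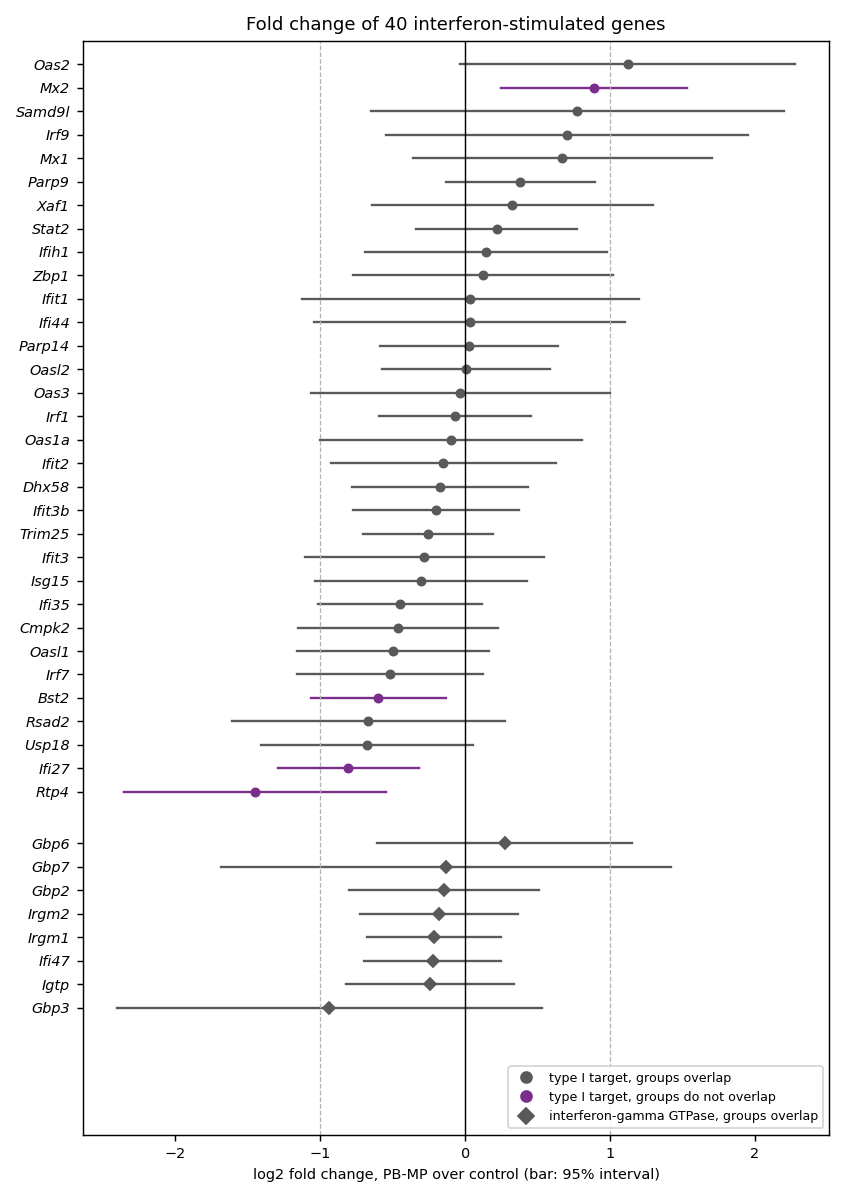
Log2 fold change of PB-MP over control for each of the 40 genes (points), with 95% intervals (bars) from the edgeR fit, type I targets above and interferon-gamma GTPases below. Estimates run from -1.45 for Rtp4 to 1.12 for Oas2, and the coloured genes are Mx2, Bst2, Ifi27 and Rtp4, whose groups do not overlap.

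The data bounded some of these differences and left others wide. The 95% interval lay within a log2 of -1 to 1 for 11 of 32 type I targets (34.4%) and 5 of 8 GTPases (62.5%), against 45.7% of all genes tested and 56% of the genes in the members' range of mean CPM. CPM here are counts scaled to a common library size by TMM, and 3 reads, the upper limit for a gene with no read, came to 0.0285 to 0.0495 CPM, for counting error only. All 40 members averaged above that limit, from 0.478 CPM for Oas3 to 139 CPM for Ifi27 over all libraries.

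Among antiviral effectors, Mx2 and Bst2 had opposite signs. Mx2, a dynamin-like GTPase, had 5.97, 3.83 and 4.24 CPM in PB-MP livers, against 2.58, 2.95 and 2.05 CPM in control livers. Every PB-MP library lay above every control library, and the log2 fold change was 0.89 ± 0.27 (SE, edgeR adjusted p = 0.304). Its neighbour Mx1, which carries a deletion in most inbred strains, averaged 1.42 ± 0.827 CPM in PB-MP and 0.891 ± 0.187 in control livers (SD, n = 3 each), with overlapping groups. Without PB-MP replicate 1, its log2 fold change of 0.67 came to 0.08.

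Bst2 had 78.7, 72.2 and 113 CPM in PB-MP livers, against 135, 131 and 134 CPM in control livers. The control libraries lay within 1.03-fold of each other and above all PB-MP libraries, and the log2 fold change was -0.60 ± 0.20 (SE, edgeR adjusted p = 0.327). With library size only as the scaling the groups of Bst2 overlapped, while those of Mx2, Rtp4 and Ifi27 did not. Ifi27, which encodes a small membrane protein, had 108, 74.0 and 122 CPM in PB-MP livers, against 185, 167 and 179 CPM in control livers. All control libraries were again the higher ones, at a log2 fold change of -0.81 ± 0.21 (SE, edgeR adjusted p = 0.247; DESeq2 adjusted p = 0.0860). Per kilobase of exon (GENCODE M21 gene models), Bst2 at 97.4 CPM in PB-MP and 148 CPM in control livers and Ifi27 at 69.1 CPM in PB-MP and 121 CPM in control livers were the most abundant of the 40 in both diets.

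Rtp4, which encodes a chaperone of membrane receptors, had the lowest estimate. It had 6.14, 2.29 and 2.81 CPM in PB-MP livers, against 9.44, 11.1 and 10.20 CPM in control livers. The control libraries were close together and above all PB-MP libraries, and the log2 fold change was -1.45 ± 0.38 (SE, edgeR adjusted p = 0.251; DESeq2 adjusted p = 0.0140). It was -2.002 without PB-MP replicate 1. Rtp4 overlaps the predicted gene Gm45338 on the same strand and shares 13.6% of its 50-base words with it, so reads may have been split between them. Gm45338 had 5.08, 3.32 and 3.99 CPM in PB-MP livers, against 3.92, 4.49 and 2.12 CPM in control livers, with overlapping groups.

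**Figure D2:**
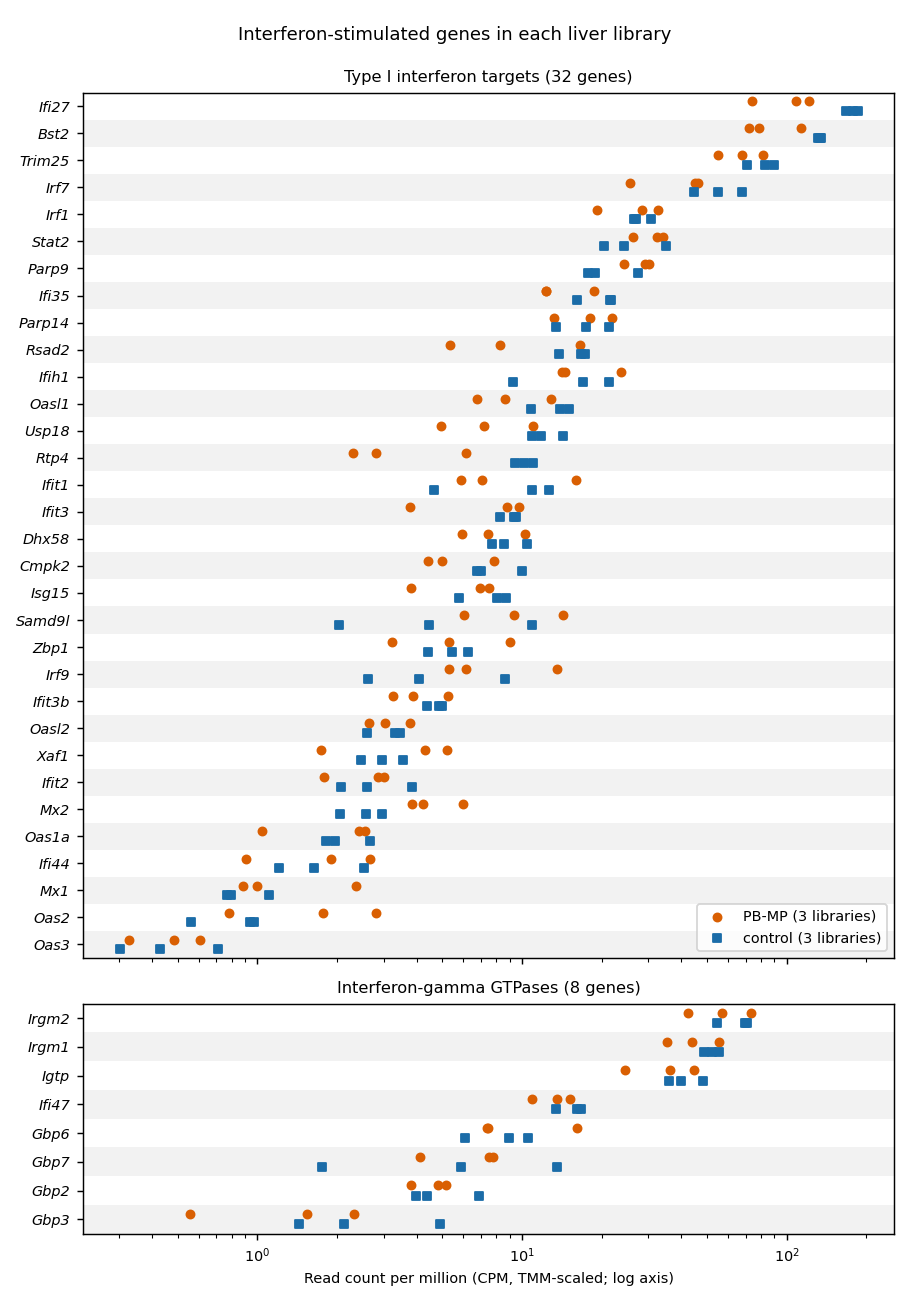
Level of each gene in CPM (log axis) in each of the 3 PB-MP and 3 control libraries, type I targets and interferon-gamma GTPases in separate panels and ordered by control level. Bst2 and Ifi27 stand highest among the type I targets, with all control points above all PB-MP points.

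Transcription factors among the 40 genes overlapped between diets. Irf7, which amplifies interferon-alpha production, had 46.3, 25.5 and 45.0 CPM in PB-MP livers, against 54.9, 67.8 and 44.7 CPM in control livers (log2 fold change -0.52 ± 0.27, SE, edgeR adjusted p = 0.488). PB-MP replicate 2 was the low library, and the other PB-MP libraries reached the lowest control library. Irf9, the DNA-binding part of ISGF3, had 13.6, 6.13 and 5.30 CPM in PB-MP livers, against 8.66, 2.62 and 4.08 CPM in control livers (log2 fold change 0.70 ± 0.53, SE, edgeR adjusted p = 0.630). Its reads may be shared with Rnf31, which overlaps it on the same strand and had 2.08, 5.22 and 1.91 CPM in PB-MP livers, against 5.27, 1.01 and 0.647 CPM in control livers. The groups overlapped for both genes.

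Stat2, a part of ISGF3, had 34.1, 32.4 and 26.3 CPM in PB-MP livers, against 35.2, 20.5 and 24.2 CPM in control livers (log2 fold change 0.22 ± 0.24, SE, edgeR adjusted p = 0.754). Irf1, which relays interferon-gamma signals to the ISRE, had 32.8, 28.4 and 19.2 CPM in PB-MP livers, against 26.5, 27.1 and 30.7 CPM in control livers (log2 fold change -0.07 ± 0.22, SE, edgeR adjusted p = 0.926). Control libraries lay inside the PB-MP range for Irf1, and its 95% interval ran from -0.59 to 0.46.

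The other 24 type I targets had log2 fold changes of -0.68 (Usp18) to 1.12 (Oas2), 11 above 0 and 13 below, with 0 at an unadjusted p below 0.05 and overlapping groups throughout. The IFIT proteins, which bind foreign RNA ends, had estimates of -0.28 to 0.03 over 4 genes. Ifit3 and Ifit3b share 51.2% and 44.5% of their 50-base words with each other, so the split of reads between them is uncertain. Isg15 and Usp18, the protease that removes ISG15 from proteins, were at -0.30 and -0.68.

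The oligoadenylate synthetase family, whose enzymes activate RNase L, had estimates of -0.50 (Oasl1) to 1.12 (Oas2) over 5 genes. Oas2 had 1.77, 0.780 and 2.81 CPM in PB-MP livers, against 0.974, 0.941 and 0.561 CPM in control livers. PB-MP replicate 2 lay within the control range, and the 95% interval of -0.04 to 2.28 included 0. Oas1a shares 57.6% of its 50-base words with Oas1g, so its level is uncertain.

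Rsad2 (viperin), which makes a chain-terminating nucleotide, averaged 10.05 ± 5.81 CPM in PB-MP and 16.0 ± 1.87 CPM in control livers (SD, n = 3 each), and Cmpk2, its neighbouring nucleotide kinase, 5.75 ± 1.86 CPM in PB-MP and 7.94 ± 1.83 CPM in control livers. In both genes PB-MP replicate 1 was within the control range and the other PB-MP libraries were below it. The estimates of Trim25, a ubiquitin ligase of RIG-I signalling, and Zbp1, a sensor of Z-form nucleic acid, were -0.26 and 0.12. Samd9l, which restrains virus replication and cell growth, was at 0.77, and its control libraries alone spanned 2.03 to 10.9 CPM.

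The ADP-ribosyl transferase family members Parp9 and Parp14 were at 0.38 and 0.03, and the RNA sensors Ifih1 (MDA5) and Dhx58 (LGP2) at 0.14 and -0.18. Ifi35, Ifi44 and Xaf1 were at -0.45, 0.03 and 0.32. Antisense or opposite-strand genes overlap Usp18, Oasl1, Parp9, Dhx58, Irf1, Irf7, Ifi35, Ifi47 and Gbp2. The libraries were directional, but the counting setting is not given in the sources used here, so reads of such partners may not be separated.

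The IRG GTPases, which patrol the membranes of vacuoles that hold intracellular microbes, had estimates close together. All 4 were below 0, from -0.24 to -0.18, though 3 of the 4 were above 0 with library size only as the scaling, and each 95% interval lay within -1 to 1. Igtp (Irgm3) had 44.7, 24.6 and 36.2 CPM in PB-MP livers, against 48.5, 40.05 and 36.0 CPM in control livers (log2 fold change -0.24 ± 0.25, SE, edgeR adjusted p = 0.734). Irgm1, which regulates the other IRG proteins, had 55.5, 35.2 and 44.1 CPM in PB-MP livers, against 52.3, 55.5 and 48.8 CPM in control livers (-0.22 ± 0.19, SE, edgeR adjusted p = 0.694). PB-MP replicate 2 was the lowest of the 6 libraries for both, and PB-MP replicate 1 lay among the control libraries or level with the highest.

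Irgm2 had 73.2, 56.8 and 42.2 CPM in PB-MP livers, against 69.6, 71.1 and 54.5 CPM in control livers (-0.18 ± 0.23, SE, edgeR adjusted p = 0.790). Igtp and Irgm2 overlap on the same strand and share 12.3% and 6.29% of their 50-base words, so some reads may be exchanged. Ifi47, an effector of the family, had 15.2, 10.9 and 13.5 CPM in PB-MP livers, against 13.4, 16.8 and 16.2 CPM in control livers (-0.22 ± 0.20, SE, edgeR adjusted p = 0.692). For both genes PB-MP and control values interleaved.

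The guanylate-binding proteins, which coat such vacuoles and bacteria, varied more. Their median within-group SD of log2 CPM was 0.75, against 0.28 for the IRG GTPases and 0.37 for all genes tested. Gbp7 had 7.49, 7.79 and 4.11 CPM in PB-MP livers, against 1.76, 13.6 and 5.89 CPM in control livers (log2 fold change -0.13 ± 0.66, SE, edgeR adjusted p = 0.953). Its control libraries differed by 7.75-fold, the widest spread of any member in either diet, and without control replicate 2 the log2 fold change was 0.72. Gbp3 had 2.32, 0.556 and 1.54 CPM in PB-MP livers, against 1.44, 4.90 and 2.13 CPM in control livers (-0.94 ± 0.62, SE, edgeR adjusted p = 0.584). Control replicate 2 was the highest library for both, and without it Gbp3 was at -0.31.

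Gbp2 had 4.81, 5.15 and 3.82 CPM in PB-MP livers, against 3.98, 6.88 and 4.39 CPM in control livers (-0.15 ± 0.28, SE, edgeR adjusted p = 0.866). Gbp6 had 16.1, 7.46 and 7.35 CPM in PB-MP livers, against 8.91, 6.09 and 10.6 CPM in control livers (0.27 ± 0.37, SE, edgeR adjusted p = 0.804). PB-MP replicate 1 was the high library of Gbp6, and without it the log2 fold change was -0.20. Gbp6 shares 90.2% of its 50-base words with the overlapping predicted gene Gm43302, so its level is uncertain. Gm43302 had 10.7, 3.69 and 3.15 CPM in PB-MP livers, against 6.55, 11.9 and 8.94 CPM in control livers.

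The order of the libraries within a diet recurred across members. PB-MP replicate 1 was the highest PB-MP library for 31 of 40 members (77.5%), against 31.2% of all genes tested, and the lowest for 0, against 26.1%. PB-MP replicate 2 was the lowest for 24 (60%, against 32.4%). Among controls, replicate 2 was the highest for 21 (52.5%, against 40.6%). Of the 44 other tested interferon-induced genes, PB-MP replicate 1 was the highest PB-MP library for 29 (65.9%) and control replicate 2 the highest control for 27 (61.4%). These genes share their libraries, so the counts describe 6 samples and not 40 independent observations.

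**Figure D3:**
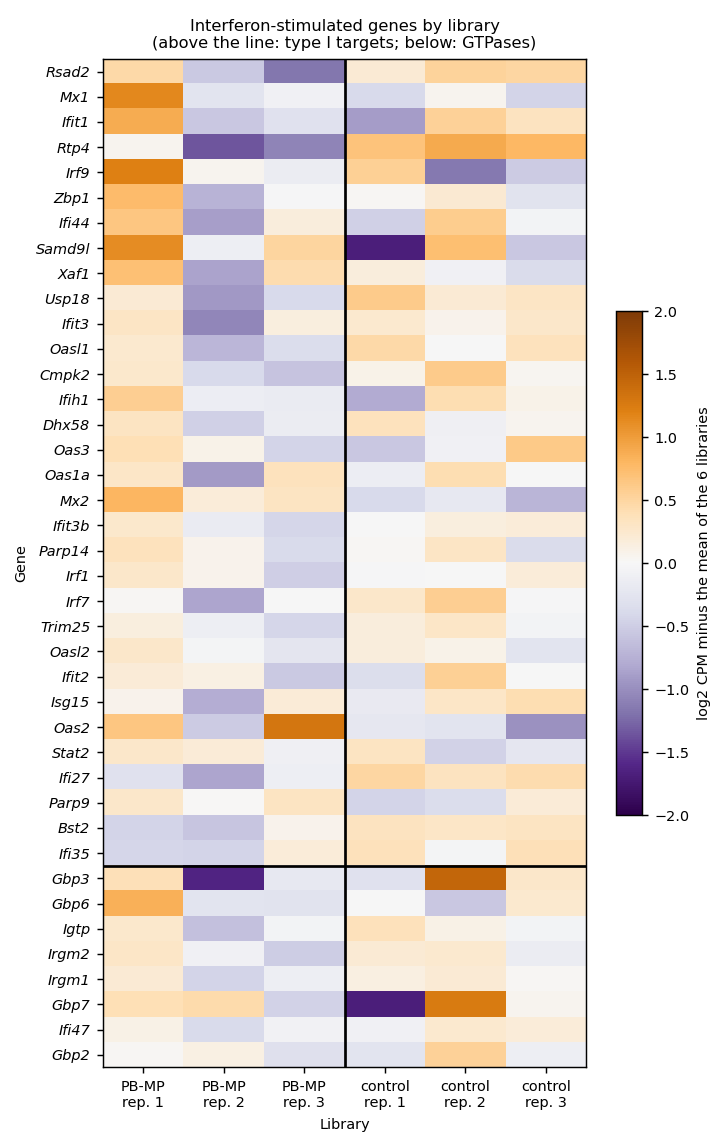
Log2 CPM of each gene in each library relative to that gene's mean over the 6 libraries (orange above, purple below), PB-MP libraries at the left and control libraries at the right. PB-MP replicate 1 is above PB-MP replicates 2 and 3 for 31 of the 40 genes, and PB-MP replicate 2 is the lowest PB-MP library for 24.

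The spread between libraries was larger in PB-MP than in control livers for 30 of 40 members (75%), measured as SD of log2 CPM, against 48.5% of all genes tested and 50.5% of genes in the members' range of mean CPM. The median SD was 0.44 in PB-MP and 0.27 in control livers for the members, and 0.32 in PB-MP and 0.32 in control livers for all genes tested. This is a description of 3 libraries per diet and was not tested. The mean log2 CPM of the type I targets was 3.40, 2.60 and 2.91 in PB-MP livers, against 2.99, 3.19 and 3.04 in control livers. That of the GTPases was 3.98, 3.31 and 3.42 in PB-MP livers, against 3.47, 4.10 and 3.72 in control livers. The control range lay inside the PB-MP range for the type I targets, and the ranges overlapped for the GTPases.

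Most of the difference in summed levels lay in the 2 most abundant transcripts. The type I targets summed to 636, 451 and 560 CPM in PB-MP livers, against 713, 724 and 693 CPM in control livers, without overlap. That gap depended on the TMM factors, which were 1.12, 1.04 and 1.08 in PB-MP libraries, against 0.961, 0.887 and 0.934 in control libraries. With library size only as the scaling, the groups of this sum overlapped. Ifi27 and Bst2 alone summed to 187, 146 and 235 CPM in PB-MP livers, against 320, 298 and 313 CPM in control livers. The remaining 30 summed to 449, 305 and 326 CPM in PB-MP livers, against 392, 426 and 380 CPM in control livers, where the groups overlapped. The GTPases summed to 219, 148 and 153 CPM in PB-MP livers, against 200, 215 and 178 CPM in control livers, also with overlap. In bulk liver, fewer cells of a type and less RNA per cell cannot be told apart.

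Upstream of these genes, the ligands were hardly read. Of 16 interferon genes with a row, 13 had 0 reads in all 6 libraries, Ifnb1 and every listed interferon-alpha gene among them. Ifng had 10, 1 and 12 reads in PB-MP libraries, against 0, 7 and 4 reads in control libraries. Ifnk had 13, 22 and 0 reads in PB-MP libraries, against 0, 5 and 2 reads in control libraries. Ifnz had 1 read in each PB-MP library and 0 in each control library. None of these 3 genes was tested. Poly(A) libraries of whole liver at this depth thus gave no ligand level that could be compared.

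None of the 5 tested receptor genes had an unadjusted p below 0.05. Ifnar1 and Ifnar2 were at log2 fold changes of 0.12 ± 0.20 and -0.25 ± 0.18, and Ifngr1 and Ifngr2 at 0.01 ± 0.18 and -0.13 ± 0.17 (SE). Their 95% intervals all lay within -1 to 1. The receptor kinases Jak1 and Tyk2 were at -0.30 ± 0.15 and -0.0041 ± 0.17 (SE), with no overlap between diets for Jak1, lower in PB-MP. With library size only as the scaling, the groups of Jak1 overlapped.

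Of the other factors, Irf3, Irf5 and Irf8 were at log2 fold changes of 0.30, 0.28 and -0.47, with no overlap between diets for Irf8, lower in PB-MP, and Stat3, which carries cytokine signals of the acute phase, at -0.16. Tbk1, the kinase that activates IRF3, had 23.6, 21.4 and 22.0 CPM in PB-MP livers, against 15.2, 17.2 and 17.4 CPM in control livers, with no overlap (log2 fold change 0.43 ± 0.16, SE, edgeR adjusted p = 0.365). The sensor gene Ddx58 (RIG-I) and the adaptor Traf3 were both at -0.21, with no overlap for Ddx58, lower in PB-MP. The groups of Irf8 and of Ddx58 overlapped with library size only as the scaling. The inhibitors Socs3 and Ptpn2 were at 0.39 and 0.24, with Isg20, a nuclease kept in the same list, at 0.23.

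Across 93 other tested genes of the pathway, 0 passed the adjusted threshold in edgeR, 4 were higher in PB-MP at an unadjusted p below 0.05 (Cgas, Tbk1, Cxcl11 and Nlrc5) and 5 were lower, among them Ifitm3, Lgals3bp, Apol9a and Apol9b. These are 4.3% and 5.38% of the 93, against 7.35% higher and 4.74% lower among all genes tested. Groups did not overlap, with TMM scaling, for 4 higher and 8 lower pathway genes (4.3% and 8.6%), against 11.4% and 8.49% of all genes tested. Their median log2 fold change was 0.02. The count of higher genes was 2 without PB-MP replicate 1 or control replicate 3 and 11 without control replicate 2, and that of lower genes was 2 without PB-MP replicate 2 or control replicate 1 and 3 without PB-MP replicate 3. With library size only it was 10 higher and 2 lower. DESeq2 called 3 of the 93, Cxcl11, Nlrc5 and Apol9a, against 2.44% of all genes it tested.

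Interferon-gamma targets outside the GTPases had estimates of both signs, 4 above 0 and 7 below. Cxcl11, a chemokine that in C57BL/6 mice is read from an allele with a frameshift, had 6.92, 3.22 and 5.41 CPM in PB-MP livers, against 1.81, 1.91 and 1.75 CPM in control livers, without overlap (log2 fold change 1.505 ± 0.32, SE, edgeR adjusted p = 0.207; DESeq2 adjusted p = 0.00237). Nlrc5, the activator of class I antigen presentation genes, had 25.1, 19.5 and 17.3 CPM in PB-MP livers, against 10.8, 11.4 and 8.99 CPM in control livers, without overlap (0.99 ± 0.21, SE, edgeR adjusted p = 0.207; DESeq2 adjusted p = 0.00639). The related chemokines Cxcl9 and Cxcl10 were at -0.37 ± 0.25 and 0.08 ± 0.34 (SE), and the immunoproteasome subunit gene Psmb8 at -0.37 ± 0.17 (SE), lower in PB-MP without overlap. The groups of Psmb8 overlapped with library size only as the scaling.

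Apol9a, an apolipoprotein L gene, had 91.0, 63.0 and 61.8 CPM in PB-MP livers, against 129, 135 and 116 CPM in control livers, without overlap (log2 fold change -0.82 ± 0.19, SE, edgeR adjusted p = 0.241; DESeq2 adjusted p = 0.0416). Its near-copy Apol9b was at -0.62 ± 0.14 (SE), and reads of the copies may be split. Ifitm3, which blocks virus entry, had 203, 154 and 174 CPM in PB-MP livers, against 301, 210 and 260 CPM in control livers, without overlap (-0.54 ± 0.19, SE, edgeR adjusted p = 0.353). Its groups overlapped with library size only as the scaling. Gbp4, Gbp8 and Tgtp2, further interferon-induced GTPases, were at 0.56, 0.95 and -0.28.

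**Figure D4:**
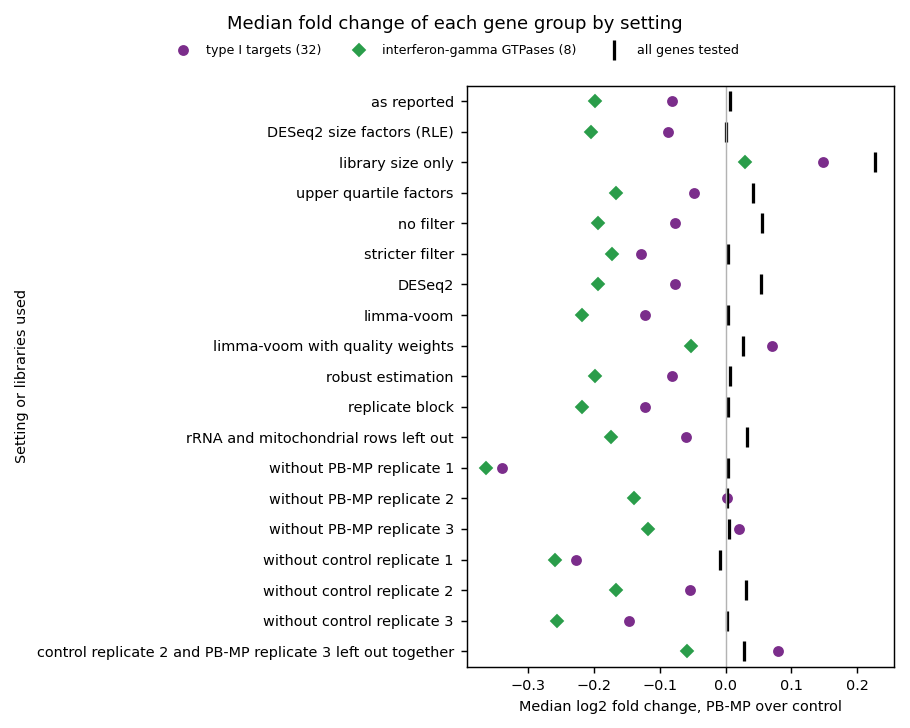
Median log2 fold change (PB-MP over control) of the 32 type I targets, the 8 interferon-gamma GTPases and all genes tested, as reported and under each of 18 other settings. With library size only, the median of all genes is 0.23 and those of the type I targets and GTPases are 0.15 and 0.03, and without PB-MP replicate 1 they are -0.34 and -0.36.

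Markers of liver cells differed between these libraries too. All 10 Kupffer cell markers had estimates above 0, 3 of them at an unadjusted p below 0.05, and their sum was 196, 175 and 372 CPM in PB-MP livers, against 175, 140 and 187 CPM in control livers. PB-MP replicate 3 was the high library, while PB-MP replicate 2 lay within the control range and PB-MP replicate 1 just above it. Marco, a scavenger receptor, had 4.46, 4.61 and 30.3 CPM in PB-MP livers, against 3.38, 3.51 and 1.55 CPM in control livers. Neutrophil markers summed to 3.04 to 5.48 CPM in PB-MP livers, against 1.17 to 1.74 CPM in control livers, with 4 of 4 tested markers above 0, 3 of them at an unadjusted p below 0.05, and Ly6g at 0 in at least 4 libraries. T and NK cell markers, of the cells that make interferon-gamma, summed to 4.78 to 5.07 CPM in PB-MP livers, against 5.53 to 8.45 CPM in control livers, with 8 of 9 tested markers below 0 (1 above 0, or 3 with library size only). The 1 above 0 was Klrb1c, at 0.431, 0.366 and 0.318 CPM in PB-MP livers, against 0.206, 0.264 and 0.238 CPM in control livers. With library size only as the scaling, the sums of this list overlapped between diets. Among all genes tested, 7.35% were higher and 4.74% lower in PB-MP at an unadjusted p below 0.05. No marker list here is a cell count.

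Monocyte markers summed to 29.6, 22.5 and 128 CPM in PB-MP livers, against 22.5, 48.1 and 32.3 CPM in control livers, with PB-MP replicate 3 the high library. B and plasma cell markers summed to 31.4 to 71.3 CPM in PB-MP livers, against 18.7 to 183 CPM in control livers, with 6 of 7 estimates below 0. Of the 7, 2 were lower at an unadjusted p below 0.05, against 4.74% of all genes tested (Cd79a and Jchain, or 1 with library size only). Igkc, an immunoglobulin light chain, set much of that sum, at 19.1, 21.3 and 60.4 CPM in PB-MP livers, against 0.137, 125 and 0.114 CPM in control livers. Without Igkc the list summed to 12.3, 14.0 and 10.9 CPM in PB-MP livers, against 40.08, 58.1 and 18.6 CPM in control livers, without overlap. The highest library was control replicate 2, also the highest control library for 21 of 40 members (52.5%) and for 40.6% of all genes tested. Jchain, the joining chain of secreted antibodies, was at a log2 fold change of -2.30 ± 0.67 (SE, edgeR adjusted p = 0.291; DESeq2 adjusted p = 0.00491). Plasmacytoid dendritic cell markers summed to 2.45 to 4.26 CPM in PB-MP livers, against 3.75 to 6.80 CPM in control livers, with Klk1 and Cox6a2 at 0 in at least 4 libraries. Ly6d made up most of that sum, and the other 2 tested markers, Siglech and Ccr9, had estimates above 0. Ccr9 was higher at an unadjusted p below 0.05, as were 7.35% of all genes tested. Without Ly6d the list summed to 0.875, 0.756 and 0.595 CPM in PB-MP livers, against 0.247, 0.578 and 0.257 CPM in control livers, without overlap. Ly6d had a log2 fold change of -0.74, so leaving it out turned the direction of the list. The smaller sums rest on few reads, with Siglech at 10, 15 and 19 reads in PB-MP libraries, against 0, 5 and 12 in control libraries. Hepatocyte markers summed to 68413 to 80024 CPM in PB-MP livers, against 63674 to 81208 CPM in control livers, so the markers of the labelled tissue were high in every library. Stellate cell markers summed to 177 to 322 CPM in PB-MP livers, against 318 to 332 CPM in control livers, those of sinusoidal endothelial cells to 75.4 to 127 CPM in PB-MP livers, against 91.0 to 115 CPM in control livers, and those of cholangiocytes to 18.1 to 28.4 CPM in PB-MP livers, against 11.9 to 26.6 CPM in control livers. The 18S rRNA row took 0.707% to 9.42% of reads in PB-MP libraries, against 1.15% to 11.2% in control libraries, and mitochondrial rows 9.24% to 11.3% in PB-MP libraries, against 14.9% to 16.4% in control libraries. The part of these differences in the values of the interferon-stimulated genes was not tested.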

How the data were processed

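Poly(A) RNA of 6 mouse liver libraries (3 PB-MP, 3 control) was sequenced from a directional kit, per the labels' protocols. Raw counts were deposited by the authors, unnormalized, for 56674 rows named by gene symbol. Each of the 6 columns matched its single file exactly. The submitters' processing notes name the build GRCm39 and bcl2fastq. The aligner, counter, annotation and strand setting remain not given in the sources used here. Library totals were 68357478 to 112566641 reads. Genes were filtered with filterByExpr at a minimum count of 10 and a minimum total of 15, so that 17871 were tested and 38803 rows were not. They were scaled by TMM and tested across the whole table with the quasi-likelihood test of edgeR 4.0.16 (R 4.3.3). Adjustment was by Benjamini-Hochberg, and SE is the log2 fold change divided by the square root of F. CPM are TMM-scaled, and log2 CPM used a prior count of 2.

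Rows sharing a name (939) held 0.0308% of reads. Alternatives were other scalings and filters, DESeq2 1.42.0, limma-voom (limma 3.58.1) unweighted or with quality weights, a replicate block, robust estimation, and refits without each library, without both control replicate 2 and PB-MP replicate 3, or without ribosomal and mitochondrial rows. No 2 libraries of a group agreed within sampling noise (chi-square per degree of freedom at least 201). The test was checked on simulated counts. The 40 genes, the pathway and marker lists and the rule for named genes were chosen with earlier results of these data known. The rule gives in full each member with an unadjusted p below 0.05 or without overlap, all 8 GTPases and the 4 transcription factors, and from each pathway list up to 3 genes with the lowest p among those averaging 1 CPM or more, plus set genes of the pathway. Mx1, Oas2, Rsad2, Cmpk2, Samd9l and the genes listed as overlapping members were given values after they were seen, as were Cgas, Lgals3bp, Ifnk and Ifnz. The marker sums without Igkc and without Ly6d were not set out beforehand. Exon lengths, overlaps and shared 50-base words come from GENCODE M21 (GRCm38), not the build of the processing notes, and promoters from RefSeq (GRCm38.p6). Promoter coordinates are of that build. The values of 1 pathway gene are not reported here.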

Additional observations from a re-analysis of the deposited data

How the results depend on the processing

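Of the 40 members, 21 kept the direction of their estimate in all 18 settings and 19 changed it in 1 or more. Leaving out each library in turn, 0 to 0 members passed the adjusted threshold in either direction, 0 to 2 were higher and 2 to 6 lower at an unadjusted p below 0.05, and medians ran from -0.34 to 0.02 for the type I targets and from -0.36 to -0.12 for the GTPases. Without PB-MP replicate 1 the count of higher members was 0, and it was 2 without PB-MP replicate 2 or without any 1 of the control libraries. The count of members higher at an unadjusted p below 0.05 was 3 with library size only, 2 with no filter, with DESeq2, with quality weights, with ribosomal and mitochondrial rows left out and without both control replicate 2 and PB-MP replicate 3, and 0 at an unadjusted p below 0.01. DESeq2 called 1 member lower, Rtp4. The pathway counts at that p were 11 higher with quality weights, and 8 higher and 9 lower without both control replicate 2 and PB-MP replicate 3. The GTPases above 0 numbered 4 in those settings, 2 with limma-voom, the block or without PB-MP replicate 3, and 3 without control replicate 2. The stricter filter tested 37 of the 40 members. The cause of these shifts was not tested.

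Same-numbered libraries of the diets deviated together with correlations of -0.09, 0.09 and 0.08, and different-numbered ones with -0.14 to 0.08. With 3 libraries per diet these values cannot show whether the numbers pair the libraries, and the labels state no pairing. With a replicate block, 0 members passed the adjusted threshold, 2 were higher and 4 lower at an unadjusted p below 0.05, 1836 of all genes tested were at that p, against 2161 without the block, and log2 fold changes that turned sign were -0.034 for Ifit1, 0.012 for Oas3, -0.017 for Ifi44 and 0.19 for Gbp7.

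Other estimates near 0 turned sign as follows. With library size only the log2 fold changes were 0.080 for Ifit2, 0.026 for Ifit3b, 0.14 for Oas1a, 0.19 for Oas3, 0.047 for Dhx58, 0.15 for Irf1, 0.012 for Irgm1, 0.045 for Irgm2, 0.0042 for Ifi47, 0.083 for Gbp2, 0.12 for Gbp7, 0.097 for Ifngr2, 0.22 for Tyk2, 0.061 for Stat3 and 0.010 for Ddx58. With quality weights they were 0.12 for Ifit2, 0.083 for Oas3, 0.059 for Irf1, 0.026 for Irgm2, 0.066 for Gbp2, 0.67 for Gbp7, -0.0034 for Ifngr1 and 0.062 for Tyk2. Without both control replicate 2 and PB-MP replicate 3 they were 0.31 for Ifit2, 0.076 for Oas3, 0.082 for Irf1, 0.053 for Irgm2, 0.24 for Gbp2, 0.98 for Gbp7 and 0.030 for Tyk2. Limma-voom gave -0.021 for Ifi44 and 0.27 for Gbp7, and DESeq2 size factors in edgeR gave -0.0018 for Oasl2. Tyk2 was at 0.029 with upper quartile factors, 0.00059 with no filter, 0.022 with the stricter filter, 0.00063 with DESeq2 and 0.019 without ribosomal and mitochondrial rows. With each library left out in turn, ranges that crossed 0 were -0.54 to 0.29 for Ifit1, -0.14 to 0.12 for Oasl2, -0.33 to 0.42 for Zbp1, -0.16 to 0.20 for Parp14, -0.14 to 0.39 for Ifih1, -0.34 to 0.35 for Ifi44, -0.20 to 0.46 for Gbp6, -0.53 to 0.033 for Ifit3, -0.31 to 0.21 for Oas1a, -0.060 to 0.078 for Ifngr1, -0.098 to 0.058 for Tyk2, -0.20 to 0.25 for Cxcl10, -0.34 to 0.092 for Ifit2, -0.30 to 0.37 for Oas3, -0.24 to 0.12 for Irf1, -0.59 to 0.72 for Gbp7, -0.34 to 0.036 for Stat3 and -0.30 to 0.10 for Gbp2. Intervals were wide for some members at low and at middle levels, such as -1.07 to 0.996 for Oas3 and -1.68 to 1.42 for Gbp7. The part of depth in this was not tested.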
